A study of Homo sapiens with 3 samples.

Results

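In a pooled knockout screen of the human gastric cancer line NUGC3, an established cell line, 424 of 61916 gene-targeting guides were lost from the culture kept in solvent but kept in the culture given the drug RTX. These guides were chosen by their measured abundance. A guide was counted when it had at least 100 normalized reads at day 0, at most 0.25 of its day 0 value in DMSO at day 14, and at least 0.5 of its day 0 value in RTX at day 14. Normalized reads are the deposited values, in which the authors scaled each library by 1 size factor within each pair of libraries compared. The day 0 values thus differ between the DMSO and RTX pairs, and the minimum used those of the DMSO pair. Of the targeting guides, 52859 reached the day 0 minimum, so the 424 were 0.802% of those that could qualify. They target 390 genes. None of the 850 non-targeting guides at or above the minimum met the rule, which allows a share of up to 0.353%, and the exact Clopper-Pearson interval at 95% is 0% to 0.433%.

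The cells carried the GeCKO library (part A, by the guide names), and the 3 groups were DMSO at day 0, DMSO at day 14 and 10 nM RTX at day 14. Each group was 1 library, with 16547572, 18805737 and 17344507 reads in that order, so the values below describe these 3 libraries, with no replicate and no test between conditions. RTX is not written out in the labels, while the series title concerns antifolate drugs. The treatment field of the labels gives 14 days of DMSO to the day 0 samples, which goes against their title, and the title was followed. Whether both day 14 cultures were split from the day 0 cells, and how many times each divided, the sources used here do not say.

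In such a screen every cell carries a guide RNA with which the nuclease Cas9 cuts 1 chosen gene, and the reads of that guide in genomic DNA follow the number of its descendants. A guide against a gene that the cell needs is diluted out as the other cells divide. Antifolates block the supply of thymidylate or purines, and cells in them can divide more slowly.

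Reads of the qualifying guides, given here as raw reads recovered from the deposited values, ranged from 95 to 819 at day 0 with a median of 187, from 0 to 227 in DMSO with a median of 37, and from 53 to 1581 in RTX with a median of 159. The DMSO value was a median of 0.188 of day 0, and the RTX value a median of 0.798, with a range of 0.5003 to 2.997. These ratios chose the guides and are a description only. In RTX, 110 of the 424 stood at or above their day 0 value and 14 at or above 2 times that value. In DMSO, 22 had fewer than 10 reads and 2 had 0. The 95% counting intervals of the RTX and DMSO ratios did not overlap in any of the 424. The rule's limits and day 0 minimum already set these ratios apart, so nothing is read from that. For 148 guides both intervals lay wholly past the rule's limits. Such intervals cover counting error only, since reads from PCR are not independent molecules.

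Guides lay close to each limit on both sides. Just inside the DMSO limit were a guide of DDX27 at 0.2498 of day 0 and one of FAM105B at 0.2495, and just outside it were guides of PES1 at 0.2507 and TBL3 at 0.2513. At the RTX limit, guides of RPA1 at 0.5003 and WDR92 at 0.5045 were inside, while guides of PES1 at 0.4974 and DNAJA3 at 0.4974 were outside. At the day 0 minimum, guides of RPL18 and PEX5L with 100.87 normalized reads were inside, and guides of CENPM and hsa-mir-483 with 99.8 were outside. The lowest non-targeting guide in DMSO stood at 0.292 of day 0 and at 0.597 in RTX. The median non-targeting guide at or above the minimum was at 1.14 of day 0 in DMSO and 1.06 in RTX. For targeting guides these medians were 0.996 and 0.995, so the non-targeting guides as a group lay farther above the DMSO limit.

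In all, 700 guides were lost in DMSO (1.32% of the 52859) and 255 were lost in RTX (0.482%) by the same limit. Of the 700, 60.6% were kept in RTX, 85 (0.161% of the 52859) were lost in both cultures and 191 lay between the limits in RTX. The opposite pattern, lost in RTX and kept in DMSO, was met by 94 guides (0.178%). The rule fixes these counts, and they carry no test. By the FDR in the authors' deposited table for RTX over DMSO, 419 of the 424 were higher in RTX at an FDR under 0.05, where 13.9% of all guides were. Their deposited table of DMSO over day 0 put all 424 lower at that FDR, against 5.84% of all guides. Both tables use the same libraries as the rule, so nothing is read from these counts.

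The guides' own sequences were not used here. The promoters of 4 targeted genes are shown because the series title names MYC, whose dimer with MAX binds the E-box CACGTG, and were picked for holding it: of the 25 genes with at least 2 qualifying guides and a promoter in the table, 9 did, and these are 4 of the 9. LONP1 encodes a mitochondrial protease, NOP10 a protein of the box H/ACA particle that modifies ribosomal RNA, POLR3C a subunit of RNA polymerase III and UTP18 a factor of small ribosomal subunit assembly. Each sequence is the 250 bases before the gene's start in RefSeq on GRCh38.p14, 5′ to 3′ on the gene's strand, with every E-box in capitals. LONP1 lies at chr19:5720147-5720396 on the minus strand, NOP10 at chr15:34343137-34343386 on the minus strand, POLR3C at chr1:145823950-145824199 on the plus strand and UTP18 at chr17:51260296-51260545 on the plus strand.
LONP1: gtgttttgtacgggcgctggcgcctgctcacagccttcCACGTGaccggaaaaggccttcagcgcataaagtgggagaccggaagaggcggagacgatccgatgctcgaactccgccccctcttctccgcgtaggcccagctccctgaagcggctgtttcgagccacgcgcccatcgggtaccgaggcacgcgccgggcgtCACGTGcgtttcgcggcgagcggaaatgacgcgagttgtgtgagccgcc
NOP10: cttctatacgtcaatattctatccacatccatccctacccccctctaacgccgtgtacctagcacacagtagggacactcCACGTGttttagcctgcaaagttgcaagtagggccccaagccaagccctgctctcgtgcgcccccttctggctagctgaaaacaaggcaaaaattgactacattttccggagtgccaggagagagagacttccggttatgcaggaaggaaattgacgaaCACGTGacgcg
POLR3C: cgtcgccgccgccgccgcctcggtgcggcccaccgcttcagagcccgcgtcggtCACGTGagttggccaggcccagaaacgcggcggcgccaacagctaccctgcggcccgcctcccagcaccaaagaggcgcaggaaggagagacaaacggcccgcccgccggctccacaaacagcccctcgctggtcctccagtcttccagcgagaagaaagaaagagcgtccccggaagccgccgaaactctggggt
UTP18: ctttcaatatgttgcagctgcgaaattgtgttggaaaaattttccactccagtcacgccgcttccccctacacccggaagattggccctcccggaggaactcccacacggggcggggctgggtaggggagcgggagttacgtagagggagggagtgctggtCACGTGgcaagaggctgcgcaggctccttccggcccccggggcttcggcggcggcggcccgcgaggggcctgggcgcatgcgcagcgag

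The letters CACGTG, which read the same on both strands, were found from 250 bases before to 50 after the start in 39 of the 278 promoters that could be matched to the genes of qualifying guides (14.0%). Among all 14852 matched promoters of targeted genes they were in 8.87%, and among genes with a guide lost in both cultures and no qualifying guide in 8 of 61 (13.1%). For genes with at least 2 qualifying guides the count was 9 of 25 (36.0%). The lists of ribosome and transfer RNA production described below held the letters in 41 of 151 promoters (27.2%), and their genes with a qualifying guide in 15 of 49 (30.6%). The ETS core CCGGAAG, searched on both strands, was in 31.3% of the 278 promoters against 14.6% of all, and the TATA box TATAAA in 4.32% against 9.38%. The genes with a guide lost in both and no qualifying guide held them in 26.2% and 3.28%. The GC box GGGCGG was in 64.7% against 59.7% and CCAAT in 42.1% against 36.5%. Mean GC content was 62.5% against 61.7%. A match is a description of letters and not a bound site.

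The other guides of the same genes show whether loss in DMSO and retention in RTX was shared by a gene's guides. An other guide is any guide whose gene has a qualifying guide besides it, so both guides of a qualifying pair count, each against the other, and all come from the same 3 libraries. Of 700 other guides at or above the day 0 minimum, 67 met the rule (9.57%), against 0.802% of all, and these 67 are the qualifying guides of the 33 genes with at least 2. Among 832 other guides that held 10 or more normalized reads at day 0, the median log2 ratio of DMSO over day 0, computed on values plus 5, was -0.39, against 0.00 for all 61619 such guides. For RTX over day 0 the same median was -0.11, and for RTX over DMSO 0.28. In DMSO 29.7% of them were at or below a log2 ratio of -1, against 7.60% of all guides, and in RTX 9.13%, against 5.36%. For genes with a guide of the opposite pattern, the other guides stood at a median of -0.08 in DMSO, -0.09 in RTX and 0.00 in RTX over DMSO. For genes with a guide lost in both, they stood at -0.76, -0.47 and 0.22. These differences were not tested.

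Of the 390 genes, 357 had 1 qualifying guide, 32 had 2 and 1 had 3. The opposite pattern gave 93 genes, 1 of them with 2 guides, and loss in both gave 83 genes, 2 of them with 2 guides. DONSON, a replication factor at forks, was the gene with all 3 guides. Reads are given below at the start (day 0) and after 14 days. The 3 guides of DONSON had 144, 246 and 176 reads at the start, 25, 55 and 47 after DMSO and 87, 257 and 126 after RTX. DONSON lies on chromosome 21, where guides as a group lay above their DMSO level under RTX (below). The remaining guides of the genes with 2, of which 30 held 10 or more normalized reads at day 0, had a median log2 ratio of -0.77 in DMSO over day 0, with a range of -2.84 to 0.51. In RTX over DMSO their median was 0.81, and 24 of the 30 were above 0, where 50.1% of all guides were. By construction none of these remaining guides meets the rule, so the set is not like that of all guides.

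Sorted by function, 211 of the 387 qualifying guides that do not target a microRNA fell in 1 of 40 lists of cell machinery. These lists held 2884 guides at or above the day 0 minimum, so 7.32% qualified, against 0.393% of the 44839 guides outside them. These shares mix loss in DMSO with retention in RTX. Of the 2884 guides, 302 were lost in DMSO, of which 211 were kept in RTX and 27 were lost in both. Of the 44839 outside, 345 were lost in DMSO, of which 176 were kept and 53 were lost in both. Of the 40 lists, 7 were chosen after the qualifying guides had been seen, and without those 7 the share that qualified was 160 of 2456 (6.51%). The remaining lists were also chosen with earlier results of these data known, so these shares are a description only. Other guides of the listed genes stood at a median log2 ratio of -0.69 in DMSO over day 0 and -0.02 in RTX over day 0, and 15.3% of them qualified. Those of the 168 unlisted genes stood at -0.29 and -0.22, and 5.54% of them qualified.

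Genes of ribosome production held 64 of the qualifying guides. Cells copy ribosomal RNA with RNA polymerase I, and many assembly factors then fold, cut and modify it in the nucleolus. Over 6 lists of this process, 64 of the 71 guides lost in DMSO were kept in RTX, 0 were lost in both, and the 64 were 15.2% of the 421 guides that could qualify. Of these 6 lists, those of small nucleolar particles and of the RNA exosome, with 17 and 3 of the 64, were chosen after the values had been seen.

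Among all guides lost in DMSO, 60.6% were kept in RTX. The small-subunit processome, which builds the precursor of the 40S subunit, had 23 of its 24 guides lost in DMSO kept in RTX, over 19 genes. These 23 were 17.7% of 130 guides that could qualify, against 0.802% of all. Their RTX values ran from 0.515 to 2.48 of day 0, with a median of 1.17. DHX33, an RNA helicase, had guides with 128 and 233 reads at the start, 4 and 0 after DMSO and 220 and 195 after RTX, while the third guide had 297, 281 and 420. The remaining guide was thus not lost. UTP23 had guides with 295 and 162 reads at the start, 50 and 29 after DMSO and 454 and 190 after RTX. UTP18 had 430 and 315 at the start, 113 and 68 after DMSO and 405 and 280 after RTX, and the third guide, below the minimum with 15 reads, had 1 in DMSO and 28 in RTX. UTP14A had 136 and 95 at the start, 29 and 25 after DMSO and 95 and 91 after RTX. The third guides of UTP23 and UTP14A were not lost, at 0.472 and 1.01 of day 0 in DMSO and at 0.857 and 1.30 in RTX. Among genes with 1 such guide, NOP58, a core protein of the box C/D particles that methylate ribosomal RNA, had 369 reads at the start, 19 after DMSO and 547 after RTX. WDR75, which supports transcription of ribosomal RNA, had 147, 11 and 304, and UTP15 had 171, 28 and 426. WDR43 had 109, 8 and 170. In each of these 4 the RTX reads exceeded the day 0 reads, but UTP15 was chosen after its values were seen. Other single guides of the list lay on both sides of day 0 in RTX, as with PDCD11 at 0.566 and HEATR1 at 1.49. Over all 140 guides of the list that held 10 or more normalized reads at day 0, the median log2 ratio was -0.64 in DMSO over day 0 and 0.11 in RTX over day 0.

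Factors that assemble the 60S subunit gave 14 of 17 lost guides kept, over 12 genes (11.9% of 118 guides that could qualify). MAK16 had guides with 115 and 433 reads at the start, 5 and 63 after DMSO and 107 and 265 after RTX, and RSL24D1, a relative of a large-subunit ribosomal protein, had 546 and 378, 77 and 71, and 478 and 305. The third guides were not lost by the rule, at 0.311 of day 0 in DMSO and 0.639 in RTX for MAK16, and, under the minimum, at 0.679 and 1.49 for RSL24D1. FTSJ3, a ribosomal RNA methyltransferase, had 130 reads at the start, 0 after DMSO and 108 after RTX. DDX18, an RNA helicase, had 532, 41 and 492. The median log2 ratio over the list's 144 guides was -0.67 in DMSO over day 0 and -0.07 in RTX over day 0.

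Small nucleolar particles and related factors had all 17 of their lost guides kept, or 25.8% of 66 guides that could qualify. NOP10 guides had 225 and 134 reads at the start, 18 and 27 after DMSO and 263 and 124 after RTX, while the third, under the minimum, had 35, 42 and 73. RBM19, which acts in the processing of ribosomal RNA precursors, had 284 and 207, 61 and 52, and 304 and 208, so its RTX reads matched day 0 closely. The third guide went the other way, with 612 reads at the start, 881 after DMSO and 562 after RTX. ABT1 had 180, 12 and 251 reads, and ZNHIT6, an assembly factor of box C/D particles, had 168, 13 and 154. The RNA exosome, which trims RNA from its 3′ end, had 3 of 4 kept (7.69% of 39 guides that could qualify). EXOSC2 among them had 406 reads at the start, 11 after DMSO and 206 after RTX.

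RNA polymerase I and its initiation factors gave 3 of 3 lost guides kept, and their RTX values were 0.960, 2.06 and 2.997 of day 0. The 3 were 7.89% of 38 guides that could qualify. TAF1C, of the factor that recruits the polymerase to ribosomal DNA, had the highest RTX value of the 424 relative to day 0, with 379 reads at the start, 53 after DMSO and 1142 after RTX. Its other guides were at 1.40 and 0.553 of day 0 in DMSO and at 1.01 and 2.03 in RTX. POLR1E had a qualifying guide with 132, 35 and 274 reads, and its other guides were just above the DMSO limit at 0.303 and 0.267 of day 0, and at 1.51 and 3.23 in RTX. All 3 POLR1E guides were above day 0 in RTX.

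RNA polymerase III, which makes transfer RNA and the small 5S ribosomal RNA, had all 8 of its lost guides kept in RTX, at 0.594 to 1.48 of day 0. The 8 were 17.0% of 47 guides that could qualify. POLR3C guides had 361 and 284 reads at the start, 78 and 61 after DMSO and 413 and 207 after RTX. The third POLR3C guide was not lost by the rule but lower in DMSO than in RTX as well, at 0.499 against 0.837 of day 0. RNase P and RNase MRP, which cut precursors of transfer and ribosomal RNA, had 4 of 6 kept (13.3% of 30 guides that could qualify). POP5, one of their shared proteins, had guides with 223 and 155 reads at the start, 27 and 21 after DMSO and 217 and 144 after RTX, and the third guide missed the RTX limit at 0.490.

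Elongator modifies the wobble position of transfer RNA. Its 1 lost guide, against ELP6, was kept, with 538 reads at the start, 96 after DMSO and 1581 after RTX. This was 1 of 20 Elongator guides that could qualify (5.0%). The other ELP6 guides were at 0.279 and 0.276 of day 0 in DMSO, just outside the limit, and at 2.29 and 1.82 in RTX. Over the 23 Elongator guides the median log2 ratio was -0.96 in DMSO over day 0 and 1.12 in RTX over day 0. Enzymes of transfer RNA thiolation and methylation gave 2 of 3 kept, of TP53RK and TRMT5 (3.77% of 53 guides that could qualify).

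In translation, aminoacyl-transfer RNA synthetases, which load amino acids on transfer RNA, had 11 of 11 lost guides kept, over 10 genes. The 11 were 10.8% of 102 guides that could qualify. QARS, the glutamine enzyme, had 127 reads at the start, 2 after DMSO and 161 after RTX, and IARS, the isoleucine enzyme, had 236, 6 and 142. LARS2, the mitochondrial leucine enzyme, had guides with 336 and 119 reads at the start, 93 and 28 after DMSO and 318 and 75 after RTX, and the third guide was at 0.901 of day 0 in DMSO and 1.55 in RTX. Initiation factors had 9 of 10 kept (10.5% of 86 guides that could qualify) and 1 lost in both. The 9 included all 3 subunits of eIF2, which brings the initiator transfer RNA, and 3 subunits of its exchange factor eIF2B (EIF2B1, EIF2B2 and EIF2B5). EIF3D had 299 reads at the start, 53 after DMSO and 565 after RTX.

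Ribosomal proteins of the small subunit had 9 of 10 lost guides kept, and those of the large subunit 9 of 14 (64.3%), where 60.6% of all lost guides were kept. RPS27 had 116 reads at the start, 7 after DMSO and 95 after RTX, and RPL30 had 226, 16 and 168. The guides of RPL3, the large-subunit gene with 2, were near the RTX limit, with 199 and 129 reads at the start, 50 and 35 after DMSO and 102 and 75 after RTX, and the third was at 0.282 of day 0 in DMSO and 0.990 in RTX. Ribosomal protein genes have many processed copies in the genome, and the sources used here do not say how reads and cuts at such copies were handled.

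Genes of sugar metabolism formed a smaller group, from lists chosen after the values had been seen. Glycolysis had 6 of 6 lost guides kept, all of enzymes in the middle and lower part of the pathway. The 6 were 12.5% of 48 guides that could qualify. Over 56 guides of the list the median log2 ratio was -0.13 in DMSO over day 0 and 0.08 in RTX over day 0. GAPDH had guides with 705 and 157 reads at the start, 148 and 11 after DMSO and 634 and 138 after RTX, but the third guide had 464, 570 and 333. ENO1, enolase, had 111, 10 and 142 reads, and TPI1, triosephosphate isomerase, had 447, 80 and 520. ALDOA and PGK1 qualified with 1 guide each. In the pentose phosphate pathway, which makes NADPH and ribose phosphate, 4 of 5 were kept and 1 was lost in both. PGD had guides with 200 and 148 reads at the start, 19 and 33 after DMSO and 144 and 315 after RTX. TKT, transketolase, had 177 and 402, 22 and 94, and 105 and 375. The third TKT guide was at 0.396 of day 0 in DMSO and 0.813 in RTX, and the third PGD guide, under the minimum, had 6, 20 and 41 reads.

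Purine nucleotide synthesis, also a list chosen after the values had been seen, had 4 of 4 kept, or 10.5% of 38 guides that could qualify. GUK1, guanylate kinase, had guides with 180 and 156 reads at the start, 30 and 19 after DMSO and 155 and 97 after RTX, but the third guide was at 1.04 of day 0 in DMSO and 0.773 in RTX. ADSL, which acts in the pathway to AMP, had 151, 7 and 161 reads. GMPS, GMP synthetase, had 202, 29 and 150.

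Mitochondrial import, proteases and chaperones, again a list chosen after the values had been seen, had 12 of 15 lost guides kept and 2 lost in both. These 12 were 11.9% of 101 guides that could qualify. LONP1 guides had 226 and 274 reads at the start, 18 and 23 after DMSO and 154 and 145 after RTX, and the third LONP1 guide stood at 0.297 of day 0 in DMSO and 0.789 in RTX. PHB2, prohibitin 2, had 158 and 367, 37 and 46, and 121 and 351. GFER, an oxidase of the import pathway of the intermembrane space, had 173 and 381, 37 and 40, and 129 and 207. The third guides of PHB2 and GFER were not lost, at 0.870 and 0.582 of day 0 in DMSO and at 1.54 and 0.906 in RTX. CHCHD4, the receptor of the same pathway, qualified with 1 guide. The mitochondrial ribosome had 11 of 17 kept (64.7%), each in a different gene, which is near the 60.6% kept among all guides lost in DMSO. These 11 were 5.88% of 187 guides that could qualify. MRPS25 among them had 158 reads at the start, 3 after DMSO and 147 after RTX. Respiratory complex I had 4 of 4 kept, and complexes III to V with cytochrome c 5 of 6, a list also chosen after the values had been seen. The 4 of complex I were 3.17% of 126 guides that could qualify, and the 5 were 4.07% of 123. Over 139 guides of complex I the median log2 ratio was -0.24 both in DMSO over day 0 and in RTX over day 0. Over 145 guides of complexes III to V the medians were -0.51 and -0.15. SOD2, the manganese superoxide dismutase of mitochondria, is in no list and had guides with 276 and 266 reads at the start, 58 and 72 after DMSO and 210 and 178 after RTX, and the third was at 0.624 of day 0 in DMSO and 0.739 in RTX.

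Other machinery had smaller shares of its lost guides kept in RTX. Of 12 guides lost in DMSO among genes of the spindle checkpoint and mitosis, 2 were kept (CCNA2 and CDC16) and 6 were lost in both, where 60.6% of all lost guides were kept. The proteasome had 7 of 18 kept and 4 lost in both, and the 7 included both qualifying guides of PSMG1, an assembly chaperone on chromosome 21. PSMD4 had 357 reads at the start, 3 after DMSO and 234 after RTX, and PSMG1 had 331 and 126, 90 and 3, and 355 and 262. The third PSMG1 guide was at 0.422 of day 0 in DMSO and 0.901 in RTX. The spliceosome core had 5 of 13 kept and 1 lost in both, and the machinery of RNA polymerase II had 8 of 16 kept and 3 lost in both. Its TBP guide, against the TATA-binding protein, had 184 reads at the start, 4 after DMSO and 151 after RTX. The vacuolar proton pump had 1 of 4 kept and 2 lost in both. The ATR-CHK1 checkpoint had 0 of 2. No test between groups was made, and several rest on fewer than 10 lost guides.

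DNA replication had 9 of 17 lost guides kept (8.11% of 111 guides that could qualify) and 2 lost in both. Besides DONSON, RPA1, of the single-strand binding protein, had guides with 340 and 324 reads at the start, 62 and 77 after DMSO and 171 and 169 after RTX, both close to the RTX limit. The third guide was at 1.08 of day 0 in DMSO and at 0.723 in RTX. Iron-sulfur assembly had 5 of 8 kept (62.5%), near the share of all lost guides. These 5 were 8.47% of 59 guides that could qualify. FAM96B, a cytosolic targeting factor, had guides with 382 and 153 reads at the start, 95 and 40 after DMSO and 344 and 272 after RTX. The third guide, under the minimum, had 62, 15 and 69 reads.

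Of the groups in the series title, cohesin was represented by PDS5A, a regulator of cohesin on chromatin, which gave 2 of the 3 cohesin guides lost in DMSO. The 2 were 4.76% of 42 cohesin guides that could qualify. Over 54 guides of the 18 cohesin genes the median log2 ratio was -0.07 in DMSO over day 0 and -0.06 in RTX over day 0. PDS5A guides had 107 and 183 reads at the start, 13 and 4 after DMSO and 116 and 177 after RTX, and the third, under the minimum, had 77, 19 and 105. ESCO2, a cohesin acetyltransferase, just missed the RTX limit at 0.488. Mediator had 4 of 5 lost guides kept, 1 each in MED27, MED4, MED6 and MED9, and MED8 missed the limit at 0.352. MED27 had 167 reads at the start, 14 after DMSO and 133 after RTX. The 4 were 4.65% of 86 guides that could qualify. None of the 30 guides of the MYC network that reached the minimum qualified, which allows up to 10.0%. The MYC guides were at 0.976, 0.276 and 0.368 of day 0 in DMSO and at 2.33, 1.52 and 2.32 in RTX, so 1 of them lay just outside the DMSO limit. MAX guides were at 0.400, 1.01 and 0.754 in DMSO and at 4.06, 1.11 and 0.887 in RTX. The MAX guide at 1.01 in DMSO was under the minimum, with 69 reads at the start.

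Of folate genes, none of the 12 guides for uptake and polyglutamation that reached the minimum was lost in DMSO, which allows a share of up to 25% to qualify. SLC19A1, the reduced folate carrier on chromosome 21, stood at 1.04 and 1.28 of day 0 in DMSO, and at 2.23 for a guide under the minimum with 35 reads. In RTX these guides stood at 120, 50.4 and 73.3 times day 0. FPGS, which adds glutamates to antifolates, stood at 0.309 to 1.04 in DMSO and at 5.62 to 61.2 in RTX. In folate one-carbon metabolism 1 of 61 guides qualified (1.64%, against 0.802% of all), that of DLD, a dehydrogenase subunit shared with the glycine cleavage system, with 510 reads at the start, 98 after DMSO and 438 after RTX. TYMS, thymidylate synthase, had no guide under the DMSO limit, at 1.17, 0.322 and 0.404 of day 0 in DMSO and 0.631, 0.403 and 0.264 in RTX. Of thymidylate and deoxynucleotide supply, 1 of 4 lost guides was kept (1.49% of 67 guides that could qualify), against the nucleoside transporter SLC29A2. Both lost guides of CMPK1, a nucleotide kinase, were below the RTX limit, at 0.373 and 0.278.

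Several genes outside the lists had 2 qualifying guides. NMT1, the N-myristoyltransferase, had 263 and 178 reads at the start, 53 and 40 after DMSO and 269 and 113 after RTX, and the third guide, also lost in DMSO, was at 0.301 in RTX. PPP4C, a protein phosphatase, had 172 and 273, 44 and 60, and 97 and 333. TDP2, which removes trapped topoisomerase from DNA ends, had 736 and 160, 120 and 37, and 468 and 83. The third TDP2 guide was not lost, at 0.923 in DMSO and 0.643 in RTX. U2SURP, a splicing protein, had 124 and 230, 24 and 59, and 69 and 117, while the third guide stood at 1.44 in DMSO. CASC5, a kinetochore scaffold, had 367 and 128, 101 and 34, and 314 and 104, and the third guide, under the minimum, had 60, 68 and 83. The third guides of PPP4C and C18orf21 were at 0.577 and 0.534 of day 0 in DMSO and at 1.04 and 0.639 in RTX. C18orf21 had 400 and 251, 79 and 64, and 379 and 200, and LOC440243 had 188 and 254, 52 and 42, and 116 and 162. U2SURP and TDP2 came closest to the RTX limit among these, at 0.506 and 0.516 of day 0. Guides lowest in DMSO among single unlisted genes targeted PRMT5, an arginine methyltransferase (207 reads at the start, 3 after DMSO and 135 after RTX), and DDX59, an RNA helicase (115, 2 and 154 reads).

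Guides against microRNA genes qualified at a rate near that of all guides, 37 of 5136 (0.720%) against 0.802%, in 37 genes. No microRNA gene had 2. Of the 78 other guides of these genes that reached the minimum, 0 qualified. Over 103 other guides the log2 ratio of RTX over DMSO had a median of -0.05. The mature microRNAs shown are the 3 with the lowest DMSO value of day 0 among those in the RefSeq table on GRCh38.p14, one strand where a hairpin gives 2, and the widely conserved miR-27b and miR-125b. Seeds (bases 2 to 8) are in capitals, and no 2 of these share a seed.
miR-1184: cCUGCAGCgacuugauggcuucc
miR-6507-3p: cAAAGUCCuuccuauuuuuccc
miR-4672: uUACACAGcuggacagaggca
miR-27b-3p: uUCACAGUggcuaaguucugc
miR-125b-5p: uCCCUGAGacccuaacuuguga
The guide against mir-1184-3 (chrX:155457577-155457599 for the mature form, plus strand) had 134 reads at the start, 8 after DMSO and 78 after RTX. That of mir-6507 (chr10:98924502-98924523, minus strand) had 163, 10 and 221, and that of mir-4672 (chr9:127869425-127869445, minus strand) had 109, 8 and 75. Those of mir-27b (chr9:95085505-95085525, plus strand) and mir-125b-2 (chr21:16590253-16590274, plus strand) had 98, 25 and 120 reads and 134, 36 and 200. A 20-base Cas9 site next to NGG shared with another hairpin was found in 2 of the 21 hairpins matched (9.52%), mir-1184-3 and mir-320c-1, against 8.48% of 1379.

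Olfactory receptors and keratin-associated proteins gave none. Of 939 olfactory receptor guides at or above the minimum 0 qualified, which allows up to 0.319%, and of 216 for keratin-associated proteins 0, which allows up to 1.39%. By chromosome, the share of guides that qualified ran from 0 on Y (49 guides) to 2.16% on chromosome 21, where 13 of 603 qualified in 10 genes. Chromosome 15 followed with 1.35%. The median log2 ratio of RTX over DMSO of all chromosome 21 guides was 0.74, and on the other chromosomes it lay between -0.18 and 0.07. The part of that shift in the values of DONSON, PSMG1, PWP2, CCT8, MRPL39 and SOD1 was not tested. Without chromosome 21, 411 guides and 31 genes with at least 2 remained.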

How the data were processed

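Genomic DNA of the 3 NUGC3 cultures was amplified by PCR and sequenced, per the labels' protocols. The deposited tables, 1 per pair of libraries, hold a normalized signal per guide. The authors made it from read counts with a size factor per library, set anew for each pair, per the file headers and values. The submitters' processing notes name MAGeCK 0.5.7 and hg19. How guides were identified in the reads, the sources used here do not say. The deposited tables also give the authors' FDR, an adjusted p-value per guide. Division by the smallest step of each column gave raw reads (at least 99.9968% of values whole within 0.1).

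The rule was applied to the deposited values, and no test was run. Log2 ratios used a pseudocount of 5 and guides with 10 or more normalized reads at day 0. Intervals are exact ones of 95% and cover counting error only. The script was tested on simulated data. The members and lists were chosen with earlier results of these data known. Genes were named by a rule: all with 2 or more qualifying guides, the 10 single-guide genes with the highest ratio of RTX over DMSO, up to 4 guides per list with the lowest DMSO value, guides nearest each limit, and the genes of the study's title and drug. ALDOA, CHCHD4, EIF2B1, MRPL39 and UTP15, the members of the lists added, SOD1 and CMPK1, and the 4 promoters and 5 microRNAs shown were chosen after their values were seen. Some genes that the rule names are not reported here. RefSeq on GRCh38.p14 placed 20250 of 20472 genes and 383 of the 390 on a chromosome. Python 3.11.15, pandas 2.3.3, numpy 2.4.6 and scipy 1.17.1 were used. Alternatives were other scalings, minimums, limits, pseudocounts and filters, counting intervals, and leaving out chromosome 21 or microRNA genes.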

Additional observations from a re-analysis of the deposited data

How the results depend on the processing

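Of 73 values under alternatives, 48 stayed close to those reported, 24 moved and 1 changed sign. The medians here are log2 ratios over the other guides of the genes with a qualifying guide. Scaling to the non-targeting guides raised the qualifying guides to 545, with medians of -0.57 in DMSO over day 0, -0.19 in RTX over day 0 and 0.41 in RTX over DMSO. With equal totals the RTX over day 0 median was -0.15. A day 0 minimum of 50 raised them to 609, with 0.211% of the non-targeting guides also meeting the rule, and gave 6.77% of other guides meeting the rule and medians of -0.28 (DMSO over day 0) and 0.21 (RTX over DMSO). A minimum of 200 left 207 guides and 9 genes with at least 2, with medians of -0.59 and 0.48. A DMSO limit lowered by a factor of 2 left 81 guides, 4 such genes and 5.80% of other guides, with an RTX over DMSO median of 0.36. An RTX limit of 1 left 110 guides, 3 such genes and 3.19%. There the RTX over day 0 median turned from -0.11 to 0.024, and the RTX over DMSO median was 0.55. Requiring both counting intervals wholly past the limits left 148 guides, 7 such genes and 5.83%, with medians of -0.031 (RTX over day 0) and 0.42 (RTX over DMSO). The cause of these moves was not tested beyond the smaller or larger sets that the limits leave. No paired analysis was possible because each condition is 1 library. No replicate could be left out for the same reason.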
